A study of Homo sapiens with 30 samples.

Results

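Colony-stimulating factors are secreted proteins named for the blood cells that they make grow, and 5 genes for such factors and for a stress cytokine, of 43972 gene names on the array, were followed here: CSF1 (M-CSF), CSF2 (GM-CSF), CSF3 (G-CSF), KITLG (stem cell factor) and GDF15. They were found through the gene name that the array files give each probe, which is an oligonucleotide of 60 bases fixed to the array. A total of 8 probes of the 58201 on the array carry 1 of these names, 3 for CSF1, 2 for CSF3 and 1 each for CSF2, KITLG and GDF15. The cells of every group are BEAS-2B, a human bronchial epithelial line that was immortalized, grown on Transwell inserts in BEGM medium and kept for 24 h at an air-liquid interface before exposure. Cells of the pollen groups received 10 mg of whole birch pollen, blown with pressured air into a sedimentation chamber, and cells of the mock groups (labelled air) went through the chamber behind a mesh that held back the grains. RNA was taken after 10 min, 55 min, 2 h 25 min, 6 h 50 min or 24 h. With 3 arrays for each exposure at each time there are 10 groups and 30 arrays. Per the methods, exposures were repeated on different days, but all samples are of 1 cell line, so the p-values measure the spread between its repeats. A lower signal from a culture can mean fewer cells of a kind or less RNA per cell, which cannot be told apart here.

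In the airway, GM-CSF from epithelium acts on dendritic cells, macrophages, eosinophils and neutrophils, G-CSF drives the production and survival of neutrophils, and M-CSF maintains macrophages. Their mRNAs are made briefly upon inflammatory signals such as NF-kB and AP-1, and those of CSF2 and CSF3 carry AU-rich elements in the 3′ untranslated region that make them short-lived. Stem cell factor exists as a membrane-bound and a shed form and is the ligand of KIT on mast cells. GDF15 is a distant member of the TGF-beta superfamily, is induced by mitochondrial, endoplasmic reticulum and genotoxic stress, and acts on the receptor GFRAL with its partner RET in the brainstem.

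The sequences that the measurements rest on are shown for the members where they lie in coding sequence or upstream of the gene. The single CSF2 probe lies at chr5:131411452-131411511 on the plus strand of hg19, the build of the array files, and lies in the coding sequence, and the dimmest of the CSF1 probes lies at chr1:110466137-110466196 on the plus strand in the coding sequence of NM_172210.
CSF2 probe: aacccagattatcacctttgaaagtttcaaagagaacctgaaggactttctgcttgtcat
CSF1 NM_172210 probe: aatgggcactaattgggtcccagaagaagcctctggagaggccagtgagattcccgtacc
The other CSF1 probes lie farther along the gene, at chr1:110469302-110469361 for the transcript NM_172212 and at chr1:110472240-110472299 for NM_000757 and NM_172211, so that the 3 probes are annotated to different transcripts. Both CSF3 probes (chr17:38173710-38173769 and chr17:38173251-38173310) are annotated to the same 4 transcripts, the KITLG probe (chr12:88886653-88886712, minus strand) to 2, and the GDF15 probe (chr19:18499890-18499949) to 1. The pentamer ATTTA, the core of AU-rich elements, occurs 3 times in the second CSF3 probe, 2 times in the GDF15 probe and 0 times in the other 6, and 7.11% of the 32141 probes tested hold it.

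The 250 bases upstream of the gene start are given for the 3 members that RefSeq's promoter table (GRCh38.p14) holds, CSF2, GDF15 and KITLG, each of which changed between groups as described further on, while CSF1 and CSF3 are named only. Capitals mark the motifs found: the CK-1 element in CSF2, and GC boxes (GGGCGG) and the TATA box (TATAAA) in GDF15 and KITLG, on either strand.
CSF2, chr5:132073539-132073788, plus strand: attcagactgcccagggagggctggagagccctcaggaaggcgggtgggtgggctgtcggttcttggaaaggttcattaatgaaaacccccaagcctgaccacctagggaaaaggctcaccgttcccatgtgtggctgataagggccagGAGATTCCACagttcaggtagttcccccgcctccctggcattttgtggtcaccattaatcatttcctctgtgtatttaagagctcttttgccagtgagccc
GDF15, chr19:18385908-18386157, plus strand: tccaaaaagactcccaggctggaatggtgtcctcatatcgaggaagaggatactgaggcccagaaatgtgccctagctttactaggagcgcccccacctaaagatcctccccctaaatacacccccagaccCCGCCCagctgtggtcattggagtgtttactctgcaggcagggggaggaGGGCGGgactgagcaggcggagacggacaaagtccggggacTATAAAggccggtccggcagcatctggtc
KITLG, chr12:88580472-88580721, minus strand: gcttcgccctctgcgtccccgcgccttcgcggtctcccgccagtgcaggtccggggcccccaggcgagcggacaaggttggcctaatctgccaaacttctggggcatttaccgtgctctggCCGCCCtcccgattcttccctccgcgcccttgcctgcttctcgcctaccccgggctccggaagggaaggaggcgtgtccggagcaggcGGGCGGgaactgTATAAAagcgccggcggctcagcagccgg
The letters of CK-1, an element of cytokine promoters, begin 101 bases before the CSF2 start, and 14 of 35116 promoters of this length, 0.0399%, hold them on either strand. TATAAA begins 29 bases before the start in both GDF15 and KITLG and is in 10.7% of promoters, while the GC box is in 42.6%. AP-1 (TGANTCA, 6.57% of promoters), CRE (TGACGTCA, 1.65%), CARE (TTNCATCA, 3.14%) and the kappaB consensus (5.21%) were searched on both strands as well and had no match in these 3 windows. Only exact matches were counted, so sites that depart from these letters are missed and their absence is not shown.

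A value below is the log2 of the background-subtracted spot signal minus the log2 of the 75th percentile of the array, so that 0 is a spot as bright as that percentile and a step of 1 is a doubling. The scanner software marks each spot as well above background or not, and a spot that is not has only an upper limit. The share of probes marked so ranged from 44.7% to 59.3% over the arrays, and saturation was seen in 0 spots. Of the 8 member probes 7 were tested, since they were well above background on every array of at least 1 group, and the second CSF3 probe was not. The GDF15, KITLG and brighter CSF1 probes were well above background on 30 of 30 arrays, the first CSF3 probe on 26, the dimmest CSF1 probe on 19, the CSF2 probe on 7 and the second CSF3 probe on 4. All 7 epithelial markers were well above background on 30 of 30 arrays. KRT18 lay between 5.57 and 6.32 and EPCAM between 0.75 and 2.18. KRT5 reached down to -0.90, below the percentile, and the other epithelial markers stayed above 0. Markers of other cell types were mixed. Of 7 leukocyte markers PTPRC, CD14 and CD79A were well above background on 30 arrays, TYROBP on 29, ITGAM on 28, CD3E on 17 and MS4A2 on 2. Of the fibroblast markers COL1A1, DCN and PDGFRB were so on 30, COL1A2 on 27 and COL3A1, LUM and PDGFRA on 0. Of the endothelial markers CDH5 was so on 30, VWF on 28, TEK on 6, KDR on 5 and PECAM1 on 0. Arrays were not spread evenly over the 5 glass slides, each of which had a scan of its own. All 10 min arrays lie on slide 1, all 6 h 50 min arrays on slide 5, and all 24 h arrays on slide 4 together with 2h25min replicate 3 of each exposure. Replicate 1 of the 55 min pollen group was run on a different array design, alone on its slide, and this design carries all 8 member probes.

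GM-CSF mRNA was close to background in most cultures and was seen mainly in the pollen groups at the middle times. At 10 min the CSF2 values were -8.65, -7.82 and -8.24 in mock and -8.23, -7.98 and -7.99 in pollen, and 0 of these 6 arrays were well above background. At 55 min they were -9.27, -7.52 and -6.15 in mock and -8.12, -5.90 and -5.47 in pollen, with 1 mock array and 2 pollen arrays well above background. At 2 h 25 min they were -7.96, -9.12 and -6.15 in mock and -5.30, -4.48 and -5.24 in pollen, with 1 mock array and 3 pollen arrays well above background. The groups overlapped at 10 min and at 55 min, and at 2 h 25 min every pollen array was brighter than every mock array. At 6 h 50 min mock read -8.60, -8.53 and -9.33 and pollen -7.90, -7.80 and -8.16. At 24 h mock read -7.61, -8.57 and -8.21 and pollen -6.37, -8.54 and -9.05. None of these 12 later arrays was well above background, so no difference between pollen and mock is given for those times.

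Of the members, CSF2 had the largest difference between pollen and mock in this fit, but it did not pass the test across all probes. The probe entered the test only through pollen at 2 h 25 min, the 1 group with all 3 arrays well above background, so a comparison that uses this group is favoured to show it higher. At 2 h 25 min pollen exceeded mock by 2.74 on the log2 scale (SE 0.76, 95% interval 1.17 to 4.31, n = 3 per group), with an adjusted p of 0.612 in limma and an unadjusted p below 0.05. At 55 min the difference was 1.15 (SE 0.76, adjusted p = 0.919). Within the slide that holds 2 mock and 2 pollen arrays of 2 h 25 min the difference was 3.66, and within the slide that holds 1 of each it was 0.91. The call depends on how dim spots are treated: with normexp background correction and quantile normalization the difference was 0.60 with an adjusted p of 0.0287, and in the deposited table of log2 values it was 0.99 with an adjusted p of 0.017, so that CSF2 passed in both. Under the replicate block, which pairs arrays of the same number, the adjusted p was 0.0987, and with slide as a block it was 0.148. Leaving out 1 array gave differences from 2.05, without mock replicate 2, the dimmest array, to 3.54, without mock replicate 3, the mock array with a detectable spot (adjusted p = 1.00 and 0.223).

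From 2 h 25 min to 6 h 50 min CSF2 passed the test in pollen, a comparison that starts from the group through which the probe entered and which was chosen as the highest. In the pollen groups it fell by 2.95 from 2 h 25 min to 6 h 50 min (SE 0.76, adjusted p = 0.00568), which, since 0 of 3 arrays were well above background at 6 h 50 min, is at least 3.15-fold lower on this scale. The size depends on how dim spots are treated, since the change was -0.63 with normexp and quantile normalization and -1.01 in the deposited table. With no filter on dim probes the adjusted p was 0.0113. In mock, where 1 array of 3 was detectable at 2 h 25 min, the same step was -1.07 (adjusted p = 0.286), and the steps of the exposures were not shown to differ (interaction -1.87, SE 1.07, adjusted p = 0.952). From 10 min to 55 min in pollen, 0 of 3 arrays were well above background before and 2 of 3 after. The groups overlapped, and the difference of 1.57, which includes spots with only an upper limit, did not pass (adjusted p = 0.332).

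G-CSF mRNA was measurable on 26 of the 30 arrays and, like CSF2, stood highest in pollen at 2 h 25 min. At 10 min the first CSF3 probe read -5.98, -5.49 and -5.69 in mock and -6.11, -5.06 and -5.67 in pollen. At 55 min it read -5.92, -5.32 and -4.11 in mock and -5.01, -3.99 and -3.52 in pollen. At 2 h 25 min it read -5.21, -5.56 and -4.89 in mock and -3.06, -3.19 and -3.96 in pollen. The groups overlapped at the first 2 times and were separate at 2 h 25 min. At 6 h 50 min mock read -7.94, -7.70 and -6.09, of which only the last was well above background, and pollen read -5.52, -5.23 and -5.06. At 24 h mock read -5.21, -6.83 and -5.86 and pollen -3.44, -7.70 and -5.47, which is the widest spread of any group for this probe (SD 2.13). Pollen was thus separate from mock at 6 h 50 min and overlapped it at 24 h.

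The CSF3 differences between pollen and mock reached 3.93-fold and none passed the test. Pollen minus mock was 0.11 at 10 min, 0.94 at 55 min, 1.82 at 2 h 25 min (SE 0.71, 95% interval 0.35 to 3.29, adjusted p = 1.00), 1.97 at 6 h 50 min (95% interval 0.50 to 3.44, adjusted p = 0.392) and 0.43 at 24 h. The spot of mock replicate 1 at 6 h 50 min lies in a dim area of its array, where the median residual of the spots around it was -0.56, and without that value the difference was 1.62 (adjusted p = 0.858). The within-slide differences at 2 h 25 min were 2.26 and 0.93. With normexp and quantile normalization the differences were 1.04 at 2 h 25 min and 0.59 at 6 h 50 min. The second CSF3 probe, too dim to be tested, read -6.61, -6.75 and -6.99 in pollen and -8.53, -8.56 and -9.04 in mock at 2 h 25 min, with 2 pollen arrays and 0 mock arrays well above background. The same probe read -2.72 on the 10 min pollen replicate 2 array against -8.18 and -9.42 on the other 2 arrays of that group, while the first probe read -5.06 there.

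CSF3 was lower at 6 h 50 min than at 2 h 25 min in both exposures. It fell by 2.02 in mock (SE 0.71, adjusted p = 0.033) and by 1.87 in pollen (adjusted p = 0.0491), and the interaction was 0.16 (adjusted p = 1.00). With normexp and quantile normalization the changes were -0.48 in mock (adjusted p = 0.195) and -0.92 in pollen (adjusted p = 0.0161), and over 9 alternative settings the call was kept in 3 in mock and in 6 in pollen. These calls were fragile: leaving out 1 array removed the mock call in 5 of 6 cases (adjusted p between 0.0145 and 0.131) and the pollen call in 6 of 6 (adjusted p between 0.0528 and 0.123), and with the uneven area left out the mock step had an adjusted p of 0.113. Since all 6 h 50 min arrays share 1 slide, the time and the slide cannot be told apart. These arrays had 44.7% to 49.8% of probes well above background, against 51.5% to 57.4% at 2 h 25 min. The median change over all probes tested at this step was -0.155 in mock and -0.112 in pollen, against -0.003 and -0.002 with quantile normalization.

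M-CSF was measured by 3 probes, and they did not move alike. The brightest, for NM_172212, read -1.38, -1.29 and -0.89 in mock and -1.15, -1.22 and -0.90 in pollen at 10 min. It read -1.45, -1.25 and -1.17 in mock and -1.70, -1.26 and -1.27 in pollen at 55 min. At 2 h 25 min it read -1.61, -0.90 and -1.08 in mock and -1.53, -0.86 and -1.26 in pollen. At 6 h 50 min it read -1.30, -1.21 and -1.23 in mock and -0.97, -1.26 and -0.87 in pollen. Neighbouring times up to 6 h 50 min overlapped, except that the 3 pollen arrays of 55 min lay below the 3 of 10 min (difference -0.32, adjusted p = 0.416). At 24 h it read -1.79, -1.96 and -1.98 in mock and -1.75, -1.72 and -1.90 in pollen, and these 6 arrays were dimmer than every earlier array of either exposure.

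From 10 min to 24 h the NM_172212 probe fell by 0.72 in mock (SE 0.18, adjusted p = 0.00286) and by 0.70 in pollen (adjusted p = 0.00442), and from 6 h 50 min to 24 h by 0.66 and 0.75 (adjusted p = 0.00573 and 0.00257). Within slide 4 the 24 h arrays differed from the 2 h 25 min array by -0.83 in mock and by -0.53 in pollen. With slide as a block the change from 10 min to 24 h was -1.02 in mock (adjusted p = 0.113) and -0.999 in pollen (adjusted p = 0.156), so that these calls were lost. The NM_000757 probe instead differed by 0.33 in mock and -0.00 in pollen between 10 min and 24 h, and neither passed (adjusted p = 0.24 and 0.991). Its highest group was pollen at 6 h 50 min, with -1.72, -1.64 and -1.78 against -2.57, -2.42 and -1.90 in mock. That difference of 0.58 (SE 0.21, 95% interval 0.14 to 1.02) had an adjusted p of 0.411, and the probe then fell by 0.80 to 24 h in pollen (adjusted p = 0.00584) against -0.07 in mock, an interaction of -0.72 (adjusted p = 0.956). For NM_172212 the difference between pollen and mock stayed between -0.12 at 55 min and 0.21 at 6 h 50 min, with 95% intervals that reached from -0.49 to 0.59. The dimmest probe, for NM_172210, ranged from -7.69 to -5.19 over all arrays and passed no test.

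Stem cell factor mRNA lay near the 75th percentile and became lower with time in mock and pollen alike. KITLG read 0.02, 0.08 and 0.04 in mock and -0.12, 0.19 and 0.10 in pollen at 10 min. At 55 min it read 0.28, -0.03 and -0.31 in mock and 0.44, 0.11 and -0.06 in pollen. At 2 h 25 min it read -0.15, -0.12 and -0.32 in mock and -0.14, -0.03 and -0.30 in pollen. At 6 h 50 min it read -0.53, -0.32 and -0.70 in mock and -0.81, -0.56 and -0.84 in pollen. At 24 h it read -1.40, -0.92 and -0.95 in mock and -1.45, -1.12 and -0.92 in pollen. Mock and pollen overlapped at all 5 times, whereas the 24 h arrays lay below all others.

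KITLG fell by 1.13 from 10 min to 24 h in mock (SE 0.17, adjusted p = 1.50e-05) and by 1.21 in pollen (adjusted p = 1.11e-05), which is 2.20-fold and 2.32-fold. From 6 h 50 min to 24 h it fell by 0.57 in mock (adjusted p = 0.0094) and by 0.43 in pollen (adjusted p = 0.049). Leaving out 1 array kept the mock call in 4 of 6 cases and the pollen call in 1 of 6. Over 10 alternative settings the pollen call was kept in 6. From 2 h 25 min to 6 h 50 min KITLG fell by 0.58 in pollen (adjusted p = 0.0118), while the difference of -0.32 in mock did not pass (adjusted p = 0.14). All 6 h 50 min arrays share 1 slide. For every member, steps to and from that time therefore cannot be told apart from slide. With slide as a block the change from 10 min to 24 h was -0.48 in mock (95% interval -1.11 to 0.15, adjusted p = 0.426) and -0.56 in pollen (adjusted p = 0.373), so that both calls were lost. In this fit slide 1 is linked to the other slides only by the mock array of 55 min replicate 1, for pollen as well. Slide 4 is linked by 2h25min replicate 3 of each exposure. Within slide 4 the 24 h arrays differed from the 2 h 25 min array by -0.77 in mock and -0.86 in pollen. The pollen effect on KITLG was between -0.22 at 6 h 50 min and 0.18 at 55 min, with 95% intervals reaching from -0.56 to 0.53.

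GDF15 was by far the brightest of the member spots relative to the percentile of its array, and it was higher at the late times in both exposures. It read 5.54, 5.57 and 5.54 in mock and 5.51, 5.64 and 5.60 in pollen at 10 min. At 55 min it read 5.15, 5.77 and 6.04 in mock and 5.62, 5.97 and 6.24 in pollen. At 2 h 25 min it read 6.19, 5.58 and 6.19 in mock and 6.59, 5.87 and 6.22 in pollen. The arrays of neighbouring times overlapped, while those of 2 h 25 min lay above those of 10 min within each exposure. At 6 h 50 min it read 7.13, 6.89 and 6.73 in mock and 6.91, 6.85 and 6.95 in pollen. At 24 h it read 7.53, 7.54 and 7.38 in mock and 7.45, 7.50 and 7.19 in pollen. Every 6 h 50 min array was above every earlier one, and every 24 h array was above every 6 h 50 min array, in each exposure and in both together. In the deposited table, which is quantile normalized, the 6 h 50 min and 24 h arrays overlapped in both exposures.

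GDF15 rose by 1.94 from 10 min to 24 h in mock (SE 0.20, 95% interval 1.52 to 2.36, adjusted p = 2.86e-07) and by 1.80 in pollen (adjusted p = 1.27e-06), or 3.83-fold and 3.48-fold. The step from 2 h 25 min to 6 h 50 min was 0.93 in mock (adjusted p = 0.00177) and 0.68 in pollen (adjusted p = 0.0148). The step from 6 h 50 min to 24 h was 0.57 in mock (adjusted p = 0.0288) and 0.48 in pollen (adjusted p = 0.0676), the latter short of the threshold. It was small under other normalizations, at 0.11 in mock and 0.05 in pollen with normexp and quantile normalization (adjusted p = 0.638 and 0.854), and leaving out 1 array kept the mock call in 2 of 6 cases. With slide as a block the change from 10 min to 24 h was 1.04 in mock (95% interval 0.31 to 1.76, adjusted p = 0.0884) and 0.90 in pollen (95% interval 0.17 to 1.63, adjusted p = 0.181). Within slide 4 the 24 h arrays exceeded the 2 h 25 min array by 1.29 in mock and 1.16 in pollen. Within slide 1 the 55 min mock array differed from the 10 min mock arrays by -0.39. That mock array, with the lowest GDF15 value of all (5.15), is the only link of slide 1 in the block, for pollen as well. Pollen minus mock was 0.04, 0.29, 0.24, -0.01 and -0.10 from the first time to the last, each with an SE of 0.20, and the 95% interval at 24 h was -0.52 to 0.32.

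**Figure D1:**
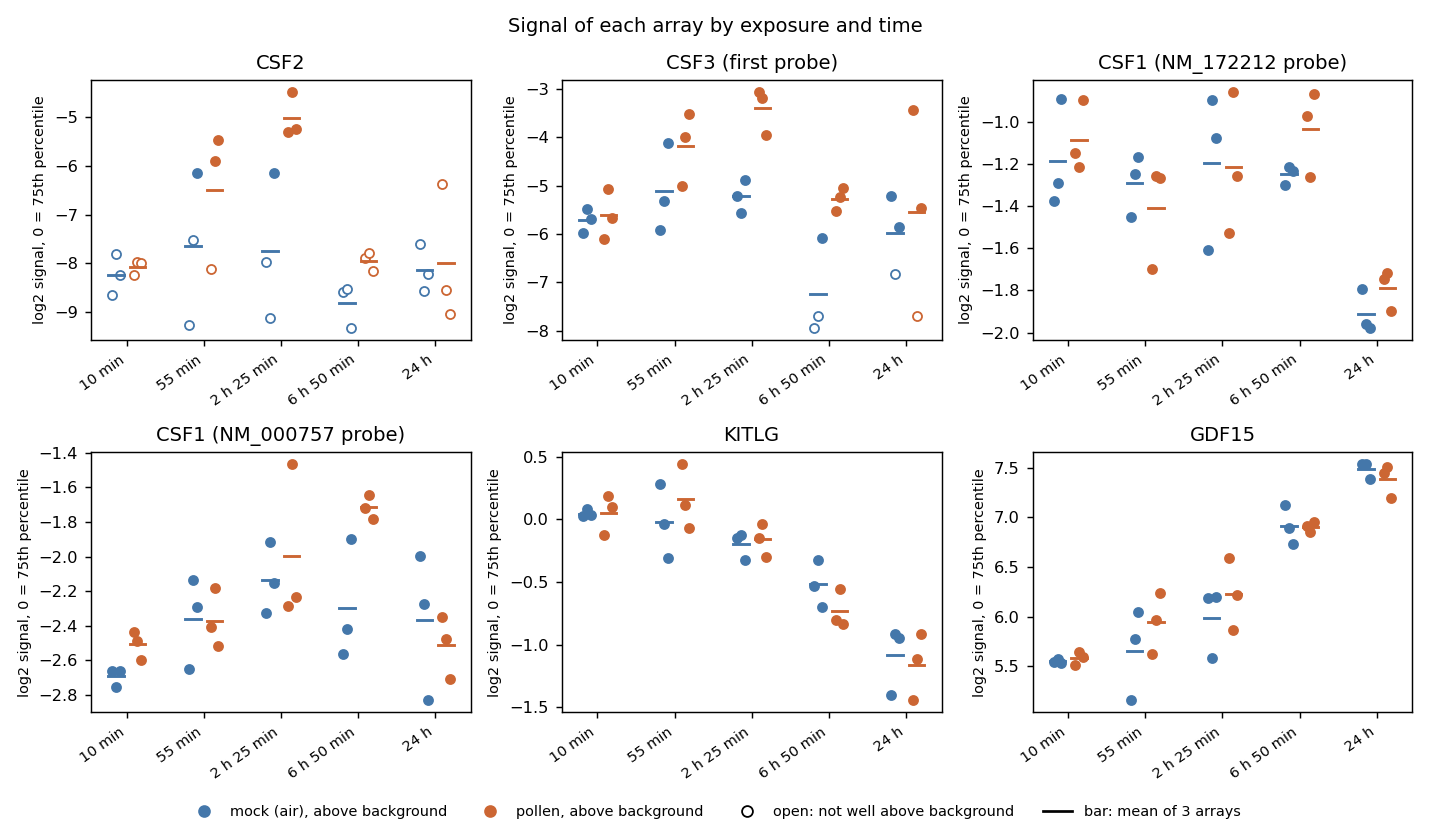
Log2 signal of 6 member probes (y axis, 0 is the 75th percentile of the array, each panel with its own scale) on each array at the 5 times (x axis), with mock in blue and pollen in orange, filled points for spots well above background and bars for the means of 3 arrays. CSF2 and CSF3 are highest in pollen at 2 h 25 min, where the pollen arrays lie apart from mock, while KITLG falls and GDF15 rises in both exposures.

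Across the members, pollen against mock gave no call at any time. The counts were 0 of 5 members at 10 min, where 0% of all 32141 probes were called, 0 of 5 at 55 min against 0.00311%, 0 of 5 at 2 h 25 min against 0.0342%, 0 of 5 at 6 h 50 min against 0.0436% and 0 of 5 at 24 h against 0.00311%. At an unadjusted p below 0.05 the limma fit had 0, 0, 2, 1 and 0 members in the same order, through the probe with the highest mean for each gene, beside 1.83%, 5.09%, 2.98%, 7.44% and 3.61% of all probes. The median difference over the 5 members was 0.24 at 2 h 25 min, against -0.03 over all probes tested. CSF2 is among these 5 and among the 2 members counted at that time. Its probe entered the test only through pollen at 2 h 25 min, which favours a higher value there. Neither number is therefore a test of the members. The tests of whether the pollen effect changed between neighbouring times called 0 of 5 members each, where 0% of probes were called from 10 min to 55 min, 0% from 55 min to 2 h 25 min, 0.00311% from 2 h 25 min to 6 h 50 min and 0% from 6 h 50 min to 24 h. At an unadjusted p below 0.05 these tests too had 0 members, counting 1 probe per gene.

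**Figure D2:**
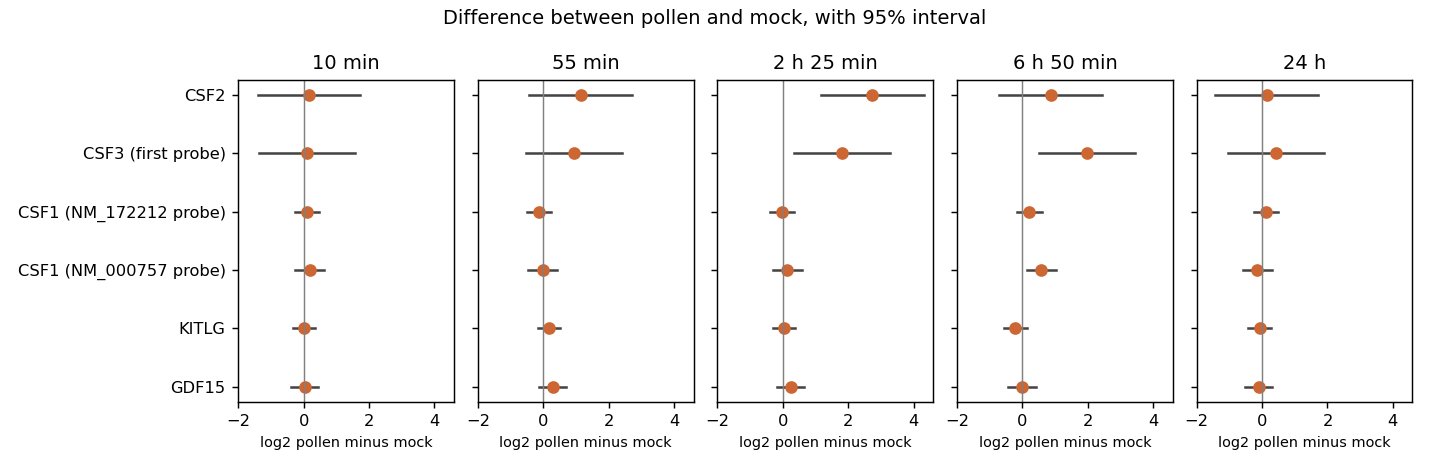
Pollen minus mock on the log2 scale (x axis) for 6 member probes (y axis) at each of the 5 times, with points for the difference of the means of 3 arrays and lines for the 95% interval of the limma fit. The intervals of CSF2 at 2 h 25 min (1.17 to 4.31) and of CSF3 at 2 h 25 min and 6 h 50 min lie above 0 before adjustment. So does that of the CSF1 NM_000757 probe at 6 h 50 min (0.14 to 1.02), while those of KITLG and GDF15 include 0 at every time. The CSF2 probe entered the test only through pollen at 2 h 25 min. The CSF2 points at 10 min, 6 h 50 min and 24 h rest only on spots not well above background.

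Between times, members were called in the later steps, and the early steps gave none. In mock 0 of 5 members were called from 10 min to 55 min (0.187% of all probes) and from 55 min to 2 h 25 min (0.0156%), and in pollen 0 of 5 for these steps as well (0.843% and 0.208%). From 2 h 25 min to 6 h 50 min 2 members were called in mock, GDF15 and CSF3, where 32.5% of probes were, and 4 in pollen, GDF15, CSF2, CSF3 and KITLG, where 31.0% were. From 6 h 50 min to 24 h 3 were called in mock (40.5%), GDF15, CSF1 and KITLG, and 2 in pollen (36.2%), CSF1 and KITLG. From 10 min to 24 h the same 3 genes, GDF15, CSF1 and KITLG, were called in mock (37.5%) and in pollen (35.3%). Since between 31.0% and 40.5% of all probes were called in each of the later comparisons, a call there is nothing particular to these 5 genes. Markers moved over time as well: the summed level of the fibroblast list, relative to the percentile, was between 0.78 and 0.93 at 10 min, between 0.63 and 3.22 at 55 min and 2 h 25 min, between 0.48 and 0.64 at 6 h 50 min and between 0.29 and 0.38 at 24 h, with COL3A1, LUM and PDGFRA well above background on 0 arrays. The sum of the epithelial list was between 118 and 170 at 10 min and between 72.9 and 102 at 24 h. Of its 7 markers 4 were called lower at 24 h than at 10 min in each exposure, with the largest fall in KRT5. In each exposure 1 marker, EPCAM, was called higher (0.92 in mock and 1.05 in pollen). Their part in the changes of the members was not tested.

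**Figure D3:**
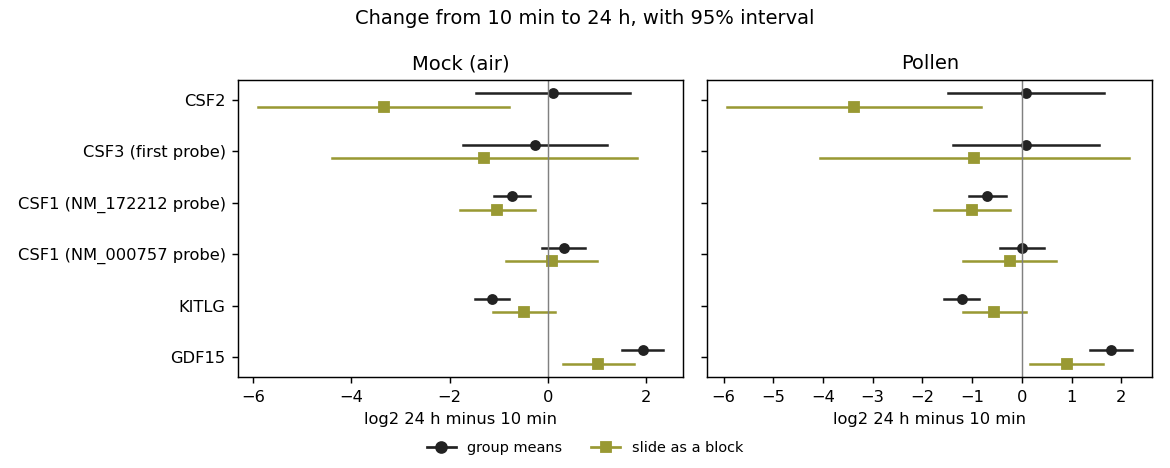
Change from 10 min to 24 h on the log2 scale (x axis) for 6 member probes (y axis) in mock and in pollen, from the group means (black) and with slide as a block (olive), with lines for 95% intervals of the limma fit over 30 arrays. GDF15 is above 0 in each estimate and falls from 1.94 to 1.04 in mock with the block, while the interval of KITLG with the block includes 0. The CSF2 points set 10 min against 24 h, where none of its spots was well above background.

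The order of the 10 group means differed between members. For GDF15 the lowest group was mock at 10 min, with a mean of 5.55 (SD 0.02, n = 3), and the highest mock at 24 h with 7.48 (SD 0.09), and mock and pollen of 1 time were neighbours or nearly so throughout. For KITLG the order ran the other way, from pollen at 24 h with -1.16 (SD 0.27) to pollen at 55 min with 0.16 (SD 0.26), and the pollen and mock groups at 24 h overlapped. For CSF2 pollen at 2 h 25 min was highest with -5.01 (SD 0.46), followed by pollen at 55 min with -6.50 (SD 1.42). For CSF3 the order was pollen at 2 h 25 min with -3.40 (SD 0.49), pollen at 55 min with -4.17 (SD 0.76) and mock at 55 min with -5.12 (SD 0.92), and these neighbours overlapped. Over the 30 arrays CSF2 and CSF3 correlated with r = 0.81 (Spearman's rho 0.84), and GDF15 and KITLG with r = -0.92 (rho -0.89). These are descriptions over arrays that share slides, times and exposures, and those with CSF2 rest mostly on spots that have only an upper limit, since 7 of its 30 spots were well above background.

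Genes with the most similar pattern over the 30 arrays were sought among the 23659 probes well above background on all arrays. For CSF2 they were ZFP36L1 (r = 0.84), ZC3H12A (r = 0.83) and MYC (r = 0.81), with the same limit from its dim spots. For CSF3 they were ZC3H12A (r = 0.83), AVPI1 (r = 0.78) and ITPRIP (r = 0.76). ZFP36L1 and ZC3H12A encode proteins that bind and destabilize mRNAs of cytokines, and MYC is a transcription factor of growth. For CSF1 they were KRT7 (r = 0.89), MIR205HG (r = 0.87, over the 29 arrays that carry its probe) and SYT12 (r = 0.87), the first of which is a keratin of simple epithelia. For KITLG they were RERG, ARHGAP28 and CNTLN (each r = 0.96). For GDF15 they were HSPA5 (r = 0.98), NOL7 (r = 0.97) and CXCL16 (r = 0.97), where HSPA5 is the chaperone BiP of the endoplasmic reticulum.

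The receptors of these factors were dim or undetected. KIT, the receptor of stem cell factor, was well above background on 1 of 30 arrays and GFRAL, that of GDF15, on 0, so neither was tested. RET, the partner of GFRAL, was above background on 26 arrays, and CSF2RA and CSF2RB, which form the GM-CSF receptor, on 22 and 26. CSF1R and CSF3R were above background on 30. Between pollen and mock 0 of the 5 receptors tested were called at any time, and 0 at 10 min, 1 at 55 min (RET, -0.93, adjusted p = 0.919), 0 at 2 h 25 min, 0 at 6 h 50 min and 1 at 24 h (CSF1R, 0.65, adjusted p = 1.00) had an unadjusted p below 0.05. From 10 min to 24 h, a step between slides 1 and 4, 37.5% of all probes were called in mock and 35.3% in pollen. CSF1R fell by 2.27 over this step in mock (SE 0.27, adjusted p = 9.94e-07) and by 1.55 in pollen (adjusted p = 0.000121). Of the probes of its ligand, NM_172212 fell as well. The NM_000757 probe differed by 0.33 in mock and -0.00 in pollen and the NM_172210 probe by 0.10 and 0.64, none of which passed. CSF3R fell by 0.76 in mock (adjusted p = 0.0415) and differed by -0.59 in pollen (adjusted p = 0.111), while CSF2RA, CSF2RB and RET did not pass.

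Genes that act around the members were counted as lists. None of the 10 TGF-beta superfamily ligands tested, of 12 listed, was called between pollen and mock at any time, nor any of the 7 other haematopoietic factors tested of 10 listed, the 15 transcription factors, the 8 mRNA decay factors or the 6 proteases that process ligands. At an unadjusted p below 0.05 the counts at 2 h 25 min were 2, 1, 5, 5 and 0 in that order, where 2.98% of all probes had such a p. At that time 13 of the 15 transcription factors known for cytokine or stress genes were higher in pollen, with a median difference of 0.34, and 6 of the 8 decay factors, with a median of 0.48, against -0.03 over all probes. Under each of the 3 other scalings the medians of both lists at 2 h 25 min were above 0. Both lists were chosen with earlier results of these data known, so these values describe the listed genes and are no test of a list. From 10 min to 24 h, where 37.5% of all probes were called in mock and 35.3% in pollen, 6 transcription factors rose and 3 fell in mock and 5 rose and 4 fell in pollen. Of the TGF-beta superfamily ligands 3 rose and 3 fell in mock and 2 rose and 4 fell in pollen. Of the other haematopoietic factors 3 rose and 0 fell in mock and 0 passed in pollen. Of the decay factors 1 rose and 1 fell in each exposure, and of the proteases 2 rose in each, with 1 falling in mock and 2 in pollen. The median differences from 10 min to 24 h were -0.35 and -0.32 for the TGF-beta superfamily ligands, 0.39 and 0.39 for the other haematopoietic factors and 0.20 and 0.20 for the transcription factors in mock and pollen, beside -0.06 and -0.07 over all probes.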

How the data were processed

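The authors hybridised Cy3-labelled RNA of 30 cultures to one-colour Agilent arrays, and deposited spot intensity values that Agilent Feature Extraction 11.0.1.1, per the submitters' processing notes, had background-subtracted within the array. The log2 value table that the authors deposited was preprocessed with limma (per the methods) and has equal quantiles in its columns. Its column for 55 min pollen replicate 1, an array of another design, was left out. The members and gene lists were chosen with earlier results of these data known.

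In R 4.3.3, outlier spots and controls were left out, replicate spots were averaged, and log2 signals were scaled by the 75th percentile of the 33873 probes on both designs. Dim spots can hold surrogate values set by the software. With limma 3.58.1 the means of the 10 groups were estimated for 32141 probes, each above background on every array of 1 group or more (20 residual and 2.34 prior degrees of freedom). A call needs a Benjamini-Hochberg adjusted p under 0.05 and, except for interactions, a change of at least 1.1-fold. All p-values are from limma and two-sided. The precision is limited by 3 arrays per group. Where the dimmer group had no array above background and the brighter group had all 3, a fold is a bound. It was set against the larger of the spot's own value and the lowest signal among spots well above background on each array.

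The text names the members through all their probes, with the probe of highest mean over all arrays standing for a gene, the receptors of the members, list genes called between pollen and mock, and the 3 genes of highest Pearson correlation with each member. Same-numbered mock and pollen arrays deviated together at 10 min, 2 h 25 min and 24 h, where the correlation of their deviations from the group means was at least 0.299 in all pairs, and not in every pair at 55 min and 6 h 50 min, where it ranged from -0.065 to 0.397. Alternatives were other background corrections, normalizations and filters, array weights, blocks for replicate and slide, fewer arrays, the deposited table and leaving out each array. Comparisons of times within 1 slide were chosen after seeing the data. The fits were also run on simulated data with independent noise. These held no slide or replicate effects and no floor for dim spots, so they do not test those limits.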

Additional observations from a re-analysis of the deposited data

How the results depend on the processing

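No member was called between pollen and mock except CSF2 at 2 h 25 min, where the count of members called rose from 0 to 1 with normexp background correction and quantile normalization and to 1 with the deposited table. The CSF2 probe entered these tests only through the pollen group of that time. With array weights 1 member, CSF2, was called from 10 min to 55 min in pollen, where the count was 0, and with slide as a block that difference reversed to -0.054. Over all probes the calls of this step went from 271 to 1340 with array weights and to 1 with slide as a block. With slide as a block the 3 calls from 10 min to 24 h fell to 0 in mock and to 0 in pollen. Over all 32141 probes the calls fell from 12041 to 1763 in mock and from 11347 to 935 in pollen. The steps to and from 6 h 50 min could not be fitted, because the 6 h 50 min arrays share 1 slide. The step from 2 h 25 min to 6 h 50 min in mock, with 2 calls, had 1 with normexp and quantile normalization, 1 with quantile normalization, 1 with the percentile over an array's own probes, 1 with no filter, 1 with only probes above background on all arrays, 1 with uneven areas left out and 1 with the deposited table. In pollen the 4 calls of this step became 1 with own percentiles and 2 with only probes above background on all arrays, which leaves out CSF2 and CSF3. Over all 32141 probes own percentiles lowered the calls of this step from 10435 to 4102 in mock and from 9969 to 3974 in pollen. From 6 h 50 min to 24 h the calls in mock went from 3 to 1 with own percentiles, and those in pollen from 2 to 1 with quantile normalization, 0 with own percentiles and 1 with no filter. Here own percentiles lowered the calls over all probes from 13032 to 6731 in mock and from 11636 to 5318 in pollen. Own percentiles moved the median of all probes at 55 min in pollen against mock from -0.01 to -0.37, since 1 of the 3 pollen arrays is of the other design, and turned the differences of GDF15 and KITLG there to -0.13 and -0.23. Changes of CSF1 opposite in sign to the fall of NM_172212 were seen with its other probes: the change from 10 min to 24 h was 0.33 in mock with NM_000757 and 0.10 in mock and 0.64 in pollen with NM_172210, and that from 6 h 50 min to 24 h was 0.17 in mock and 0.59 in pollen with NM_172210, none of which passed. In the other 3 of these comparisons NM_000757 had the sign of NM_172212, and it fell from 6 h 50 min to 24 h in pollen by 0.80, which passed. Leaving out each array in turn gave 1 to 2 calls from 2 h 25 min to 6 h 50 min in mock and 1 to 3 in pollen, and 1 to 3 calls from 6 h 50 min to 24 h in mock and 1 to 2 in pollen. The calls over all probes were not counted for these fits. With the replicate block the CSF2 difference at 2 h 25 min stayed 2.74 with an adjusted p of 0.0987, and the block changed no count of members called by more than 1.5 times. Over all probes the calls between pollen and mock moved more: at 2 h 25 min from 11 to 22 with the deposited table, 44 with the replicate block and 2 with own percentiles, at 6 h 50 min from 14 to 386 with the deposited table, 530 with array weights, 135 with the replicate block and 3 with uneven areas left out, at 55 min from 1 to 241 and at 24 h from 1 to 105 with array weights, and with only the arrays of the times compared 0 at every time. The 7 arrays with a CSF2 spot above background limit what can be said of it.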
